A study of Homo sapiens with 4 samples.

Results

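The ABCA genes encode ATP-binding cassette proteins that move lipids across membranes, and 10 of them were followed in A549 cells, an established human lung adenocarcinoma line, after CRISPR targeting of UHRF1. The 10 genes (ABCA1, ABCA3, ABCA4, ABCA5, ABCA6, ABCA8, ABCA9, ABCA10, ABCA12 and ABCA13) are rows of a table of 58735 gene identifiers, matched by identifier to GENCODE release 29. They were chosen by their log2 fold changes between the same libraries, since some members were strongly higher and others lower. Their differences between groups are therefore a description, given without a test. There were 2 UHRF1 KO libraries, from cells given a guide against UHRF1, and 2 control libraries, from cells given a non-targeting guide. All cells received the guide in the lentiCRISPRv2-hygro vector and were selected with hygromycin. The sources do not state if the cells were clonal, how long they were kept after infection, or if replicates were grown separately, so the p-values here measure the spread between libraries only, and that spread may be technical.

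As background, ABCA proteins use ATP to move sterols, phospholipids or lipid conjugates out of the cell or into stores such as lysosomes and lamellar bodies. ABCA1 loads cholesterol and phospholipid onto apolipoproteins, the first step in making high-density lipoprotein, and its promoter is a classic target of the liver X receptors (LXR), which sense oxysterols. ABCA3 fills the lamellar bodies of alveolar type II cells with surfactant phospholipid, and A549 cells are often used as a model of that cell type. UHRF1 binds hemimethylated CpG and brings the maintenance methyltransferase DNMT1 to it at replication.

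The CpG content of the members' start regions is shown first, since CpG is the dinucleotide UHRF1 reads. RefSeq windows (GRCh38.p14) of 300 bases, from 250 before to 50 after an annotated start, were found for 8 of the 10 genes, 10 windows in all. ABCA4 and ABCA8 are named only. The 6 windows printed span the contrast among members, with CpG in capitals and each sequence written 5′ to 3′ along the gene.
ABCA1, chr9:104928106-104928405, minus strand: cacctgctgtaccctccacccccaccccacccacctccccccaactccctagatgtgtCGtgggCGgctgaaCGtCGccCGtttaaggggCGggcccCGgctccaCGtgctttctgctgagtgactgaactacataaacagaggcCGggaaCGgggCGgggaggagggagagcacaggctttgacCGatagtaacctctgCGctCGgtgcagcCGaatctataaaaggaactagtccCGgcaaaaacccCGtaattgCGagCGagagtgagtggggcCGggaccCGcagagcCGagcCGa
ABCA3, chr16:2340679-2340978, minus strand: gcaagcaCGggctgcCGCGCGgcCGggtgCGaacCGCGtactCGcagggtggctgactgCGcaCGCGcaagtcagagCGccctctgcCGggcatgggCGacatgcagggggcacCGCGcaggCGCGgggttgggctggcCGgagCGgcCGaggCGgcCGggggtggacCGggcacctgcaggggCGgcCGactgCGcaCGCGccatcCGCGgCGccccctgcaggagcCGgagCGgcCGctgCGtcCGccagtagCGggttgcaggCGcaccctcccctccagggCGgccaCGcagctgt
ABCA5, chr17:69327084-69327383, minus strand: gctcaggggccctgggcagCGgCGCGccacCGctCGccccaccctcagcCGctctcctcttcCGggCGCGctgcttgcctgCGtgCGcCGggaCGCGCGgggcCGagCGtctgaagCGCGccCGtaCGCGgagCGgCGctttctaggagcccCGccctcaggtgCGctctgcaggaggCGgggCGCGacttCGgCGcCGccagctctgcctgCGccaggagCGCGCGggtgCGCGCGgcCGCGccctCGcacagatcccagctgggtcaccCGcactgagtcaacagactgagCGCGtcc
ABCA9, chr17:69060878-69061177, minus strand: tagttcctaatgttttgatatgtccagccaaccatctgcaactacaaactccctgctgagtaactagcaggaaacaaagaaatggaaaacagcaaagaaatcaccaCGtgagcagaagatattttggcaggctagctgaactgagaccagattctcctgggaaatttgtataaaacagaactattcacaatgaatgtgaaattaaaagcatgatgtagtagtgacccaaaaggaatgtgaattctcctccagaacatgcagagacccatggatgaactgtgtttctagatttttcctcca
ABCA12, chr2:215138577-215138876, minus strand: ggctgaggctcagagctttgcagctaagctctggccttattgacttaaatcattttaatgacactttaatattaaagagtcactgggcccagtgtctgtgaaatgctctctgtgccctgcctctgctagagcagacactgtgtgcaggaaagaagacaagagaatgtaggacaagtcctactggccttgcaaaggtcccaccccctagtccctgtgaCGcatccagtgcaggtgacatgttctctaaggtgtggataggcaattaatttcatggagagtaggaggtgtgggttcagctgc
ABCA13, chr7:48171208-48171507, plus strand: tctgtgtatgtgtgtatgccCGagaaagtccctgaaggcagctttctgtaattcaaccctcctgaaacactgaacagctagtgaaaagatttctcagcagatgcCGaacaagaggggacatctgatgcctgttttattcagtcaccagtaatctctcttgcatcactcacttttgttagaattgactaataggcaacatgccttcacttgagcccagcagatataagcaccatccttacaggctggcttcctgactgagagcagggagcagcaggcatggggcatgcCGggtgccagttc
The windows fell into a set above the median CpG count and a CpG-poor set. ABCA5 had 45 CpG, ABCA3 had 42 and ABCA1 had 23, against a median of 14 over 34941 windows of the same length. The upper quartile was 28, so ABCA1 lay below it, with 64.3% of windows holding fewer CpG. The other 7 windows, of ABCA6, ABCA9, ABCA10, ABCA12 and ABCA13, had 1 to 3 CpG, where the lower quartile of all windows was 4. The 3 genes above the median were also the 3 with the highest level per kb in both groups, as given below. Both sets held higher and lower members.

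The ABCA1 window also holds the DR4 element known as its LXR site, here in capitals as a whole and along the gene: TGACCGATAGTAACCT. It begins 69 bases before the annotated start and reads as the repeat on the opposite strand. A search of both strands for this variant form found it in 1 of the 34941 windows, a count that means little since the letters were taken from ABCA1. The textbook DR4 repeat was in 7 windows (0.02%) and in none of the member windows. The GC box GGGCGG, searched on both strands, was in 44.9% of all windows and among the members in those of ABCA1 (3 matches), ABCA3 (2 matches) and ABCA5 (1 match).

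The libraries held 20020366 and 23977168 counts in UHRF1 KO and 18604598 and 19222886 in control. UHRF1 itself was at 39.7 ± 0.793 CPM in UHRF1 KO and 98.2 ± 0.902 CPM in control (SD, n = 2 each), a transcript level that does not measure the protein. CPM here is the usual depth-scaled count with library sizes adjusted by TMM, as used in an edgeR fit to 17030 genes. In that fit 62.0% of genes were called at an adjusted p under 0.05, 32.0% higher and 30.1% lower in UHRF1 KO, so a call alone sets no gene apart. Of all calls 51.5% were higher, but 63.6% with scaling to total counts only, which moved the median log2 fold change of all genes by 0.11. With trends on GC content and length taken out and each library recentred, 30.1% of calls were higher and that median moved by -0.26. Epithelial markers summed to 3826 and 3806 CPM in UHRF1 KO and 4978 and 4749 CPM in control, with 0 of 7 at 0, 2 called higher (EPCAM and CLDN4) and 5 lower. Endothelial markers summed to 30.1 and 31.1 CPM in UHRF1 KO and 0.561 and 0.216 CPM in control, with PECAM1 the 1 of 4 called. PECAM1 had 7 and 2 counts in control, passed the filter on its UHRF1 KO counts and had to come out higher. Fibroblast markers summed to 22.5 and 23.98 CPM in UHRF1 KO and 3.87 and 5.71 CPM in control, with 3 of 5 called higher. Among these, COL1A2 had 0 and 0 counts in control, passed on its UHRF1 KO counts and also had to come out higher. Leukocyte markers summed to 6.32 and 6.68 CPM in UHRF1 KO and 1.85 and 1.94 CPM in control, with CD3E at 0 throughout and 1 of 5 called higher. Neuronal markers summed to 50.004 and 53.3 CPM in UHRF1 KO and 43.6 and 43.2 CPM in control, with 2 of 4 called higher and 1 lower. The part of these marker differences in the ABCA values was not tested. In bulk RNA, fewer cells that express a gene and less RNA per cell cannot be told apart.

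Of the 10 ABCA genes 7 were called higher, 2 lower and 1 neither, beside the 62.0% called among all genes. The same contrast chose the genes, so nothing is read from that count. All 10 passed the filter on low counts, but ABCA4, ABCA6, ABCA9 and ABCA13 had fewer than 10 counts in each control library and passed on their UHRF1 KO counts, so they had to come out higher.

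**Figure D1:**
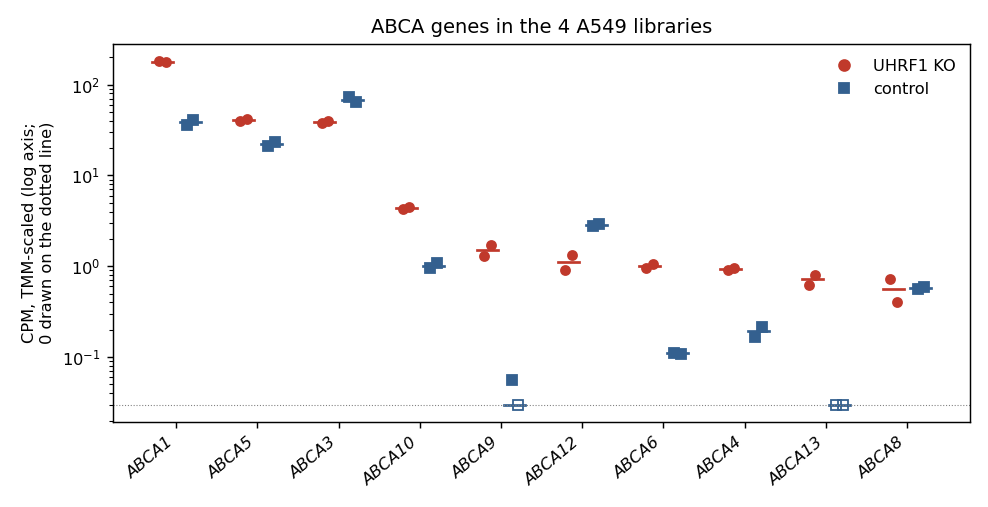
Level of the 10 ABCA genes in each library, in TMM-scaled CPM on a log axis, ordered by their UHRF1 KO mean; circles are the 2 UHRF1 KO libraries, squares the 2 control libraries, short lines the group means and hollow squares values of 0. ABCA1 separates the groups at the high end, ABCA3 and ABCA12 lie below control, and ABCA8 overlaps.

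ABCA1, the cholesterol exporter (ENSG00000165029, chromosome 9, 104781002 to 104928237, minus strand, GRCh38), was at 181 and 176 CPM in UHRF1 KO and 36.3 and 40.3 CPM in control. These levels came from 3752 and 4373 counts in UHRF1 KO and 647 and 748 in control. The groups were far apart relative to the spread within each. The means were 178 ± 3.54 CPM in UHRF1 KO and 38.3 ± 2.85 CPM in control (SD, n = 2 each), a difference of 4.65-fold (log2 fold change 2.22, SE 0.053). Across 15 alternatives its log2 fold change lay between 2.09 and 2.39.

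ABCA3, the surfactant phospholipid transporter (ENSG00000167972, chromosome 16, 2275881 to 2340746, minus strand), was lower in UHRF1 KO. It was at 37.4 and 39.3 CPM in UHRF1 KO and 72.1 and 64.5 CPM in control, from 775 and 977 counts in UHRF1 KO and 1285 and 1197 in control. Both UHRF1 KO libraries lay below both control libraries. The means were 38.3 ± 1.37 CPM in UHRF1 KO and 68.3 ± 5.33 CPM in control (SD, n = 2 each), or 1.78-fold lower (log2 fold change -0.83, SE 0.063). The pseudogene ABCA17P overlaps its span on the other strand, but the annotated exons share 0 bases, and ABCA17P had 14 counts over both UHRF1 KO libraries and 9 over both control libraries.

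ABCA5, found in late endosomes and lysosomes (ENSG00000154265, chromosome 17, 69244311 to 69327244, minus strand), was at 39.97 and 41.4 CPM in UHRF1 KO and 21.2 and 23.6 CPM in control, from 829 and 1030 counts in UHRF1 KO and 378 and 437 in control. Its groups did not overlap. The means were 40.7 ± 1.03 CPM in UHRF1 KO and 22.4 ± 1.67 CPM in control (SD, n = 2 each), or 1.82-fold higher (log2 fold change 0.86, SE 0.077).

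Per length, the order of the members differed between the groups. In CPM per kb of merged exons, ABCA1 was first in UHRF1 KO at 15.7 ± 0.312, followed by ABCA3 at 4.91 ± 0.175 and ABCA5 at 3.09 ± 0.0784 (SD, n = 2). In control, ABCA3 was first at 8.75 ± 0.683, followed by ABCA1 at 3.37 ± 0.251 and ABCA5 at 1.701 ± 0.127. None of these neighbours in the order overlapped between libraries in either group. The summed level of the 10 genes per kb was 24.8 and 24.8 in the UHRF1 KO libraries and 14.5 and 14.1 in the control libraries. ABCA1 made up 63.4% of the mean sum in UHRF1 KO and 23.5% in control, and ABCA3 made up 19.8% in UHRF1 KO and 61.1% in control. Without ABCA1, the other 9 genes summed in plain CPM to 87.1 and 91.6 in the UHRF1 KO libraries and 97.9 and 92.98 in the control libraries, so the higher total rested on ABCA1. Which isoforms the reads came from was not measured.

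**Figure D2:**
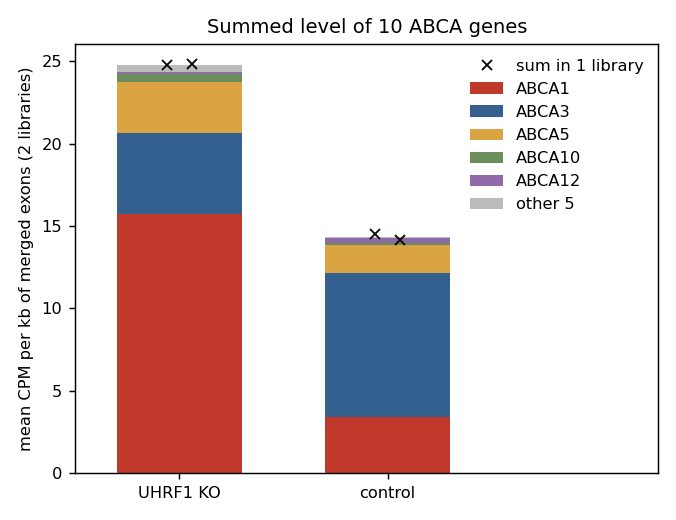
Mean level per kb of merged exons, in CPM per kb, summed over the 10 ABCA genes and stacked by gene, for UHRF1 KO (left) and control (right); crosses are the sums in single libraries. ABCA1 is the largest block in UHRF1 KO and ABCA3 in control.

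ABCA5 belongs to a run of 5 neighbouring genes on chromosome 17, all on the minus strand, in the order ABCA8, ABCA9, ABCA6, ABCA10 and ABCA5 from position 68867292 to 69327244. The last 4 of these were called higher, beside 32.0% over all genes, and ABCA8 was not called. ABCA6 and ABCA9 passed the filter on their UHRF1 KO counts and had to come out higher. The members were chosen on this contrast, so nothing is read from the count in the cluster. ABCA10 (ENSG00000154263, chromosome 17, 69147214 to 69244846, minus strand) was at 4.29 and 4.55 CPM in UHRF1 KO and 0.953 and 1.08 CPM in control, from 89 and 113 counts in UHRF1 KO and 17 and 20 in control. Its libraries separated by group, at 4.33-fold (log2 fold change 2.11, SE 0.27). ABCA10 and ABCA5 share 318 exonic bases on the same strand, of 8405 in ABCA10, so their counts are not fully separate.

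ABCA6 (ENSG00000154262, chromosome 17, 69078702 to 69141888, minus strand) was at 0.964 and 1.05 CPM in UHRF1 KO and 0.112 and 0.108 CPM in control, from 20 and 26 counts in UHRF1 KO and 2 and 2 in control. Its groups were apart, though on few counts (log2 fold change 3.13, SE 0.62). ABCA9 (ENSG00000154258, chromosome 17, 68974488 to 69061064, minus strand) had 27 and 43 counts in UHRF1 KO and 1 and 0 in control, and with 1 control count its ratio was 55.9 (95% counting interval 9.702 to 2237). Both genes were near 0 in control.

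ABCA8, which has been linked to cholesterol efflux (ENSG00000141338, chromosome 17, 68867292 to 68955392, minus strand), had 15 and 10 counts in UHRF1 KO and 10 and 11 in control. The levels were 0.723 and 0.402 CPM in UHRF1 KO and 0.561 and 0.593 CPM in control, and the UHRF1 KO libraries lay on either side of both controls. Its log2 fold change was -0.065 (SE 0.50), and it was 0.043 with total counts only, 0.19 with trends on GC content and length taken out and 0.32 without UHRF1 KO replicate 2. The antisense gene ABCA9-AS1, which overlaps exons of ABCA8 and ABCA9, had 0 counts in all 4 libraries.

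**Figure D3:**
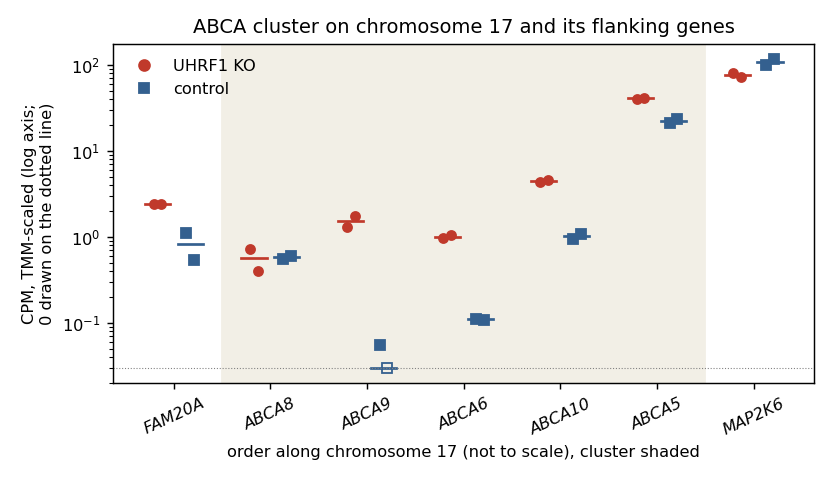
Level of the 5 clustered ABCA genes (shaded) and of the nearest protein-coding gene on each side, in chromosome order, in TMM-scaled CPM on a log axis; circles are UHRF1 KO libraries, squares control libraries, short lines group means and the hollow square a value of 0. ABCA9, ABCA6, ABCA10 and ABCA5 lie above control, while ABCA8 overlaps and MAP2K6 lies below.

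The genes on either side of the cluster were not used to choose the members and were tested. FAM20A, a secretory pathway pseudokinase gene 266 kb from ABCA8, rose to 2.41 and 2.41 CPM in UHRF1 KO, against 1.12 and 0.539 CPM in control (log2 fold change 1.54, SE 0.34; edgeR adjusted p = 2.20e-04). MAP2K6, a kinase gene of the p38 pathway 87.5 kb from ABCA5, fell (log2 fold change -0.50, SE 0.059; edgeR adjusted p = 3.95e-08). The cluster thus lay between a gene that rose and a gene that fell.

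The remaining members serve specialised tissues and were at low levels. ABCA4, the transporter of retinal conjugates in photoreceptors (ENSG00000198691, chromosome 1, 93992835 to 94121132, minus strand), was at 0.916 and 0.965 CPM in UHRF1 KO and 0.168 and 0.216 CPM in control, from 19 and 24 counts in UHRF1 KO and 3 and 4 in control (log2 fold change 2.26, SE 0.56). ABCA13, the member with the longest merged exons here at 19.1 kb (ENSG00000179869, chromosome 7, 48171458 to 48647496, plus strand), had 13 and 20 counts in UHRF1 KO and 0 and 0 in control. Set against a floor of 3 counts over both control libraries, it was at least 8.68-fold higher.

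ABCA12, which carries glucosylceramide into the lamellar granules of keratinocytes (ENSG00000144452, chromosome 2, 214931542 to 215138428, minus strand), was the other member called lower. It was at 0.916 and 1.33 CPM in UHRF1 KO and 2.75 and 2.91 CPM in control, from 19 and 33 counts in UHRF1 KO and 49 and 54 in control. The UHRF1 KO libraries differed from each other more than the controls did, but both stayed below the controls, by 2.48-fold on average (log2 fold change -1.31, SE 0.29). Per kb, its UHRF1 KO libraries overlapped those of ABCA4, the next gene in the order.

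**Figure D4:**
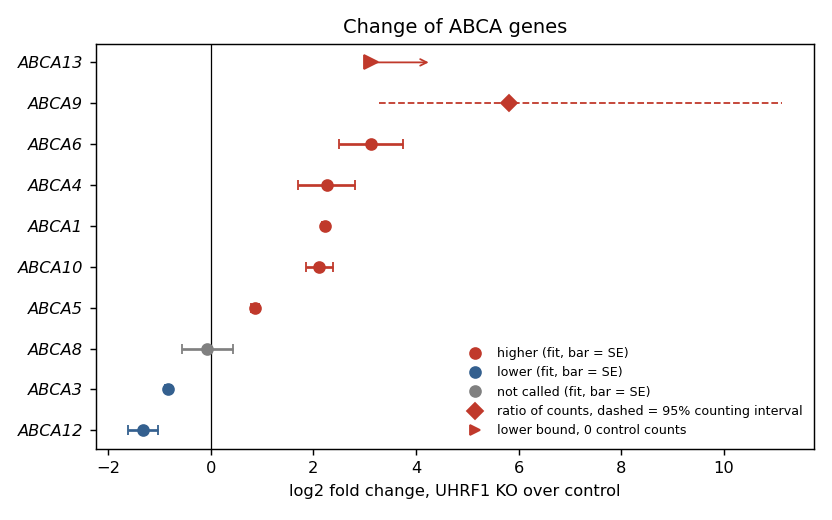
Log2 fold change of each ABCA gene, UHRF1 KO over control, with the SE of the fit as a bar; the diamond is the ratio of counts of ABCA9 with its 95% counting interval (dashed) and the triangle the lower bound for ABCA13. ABCA1, ABCA3 and ABCA5 have the shortest bars, and ABCA13, ABCA9, ABCA6 and ABCA4 at the top rest on few control counts.

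The rest of the ABCA family is what remained when the members were chosen. That choice was made with earlier results of these data known, so the tests of these genes are not independent of it. ABCA7, a phospholipid transporter linked to phagocytosis, rose to 34.99 ± 0.181 CPM in UHRF1 KO, against 21.99 ± 2.07 CPM in control (log2 fold change 0.67, SE 0.081; edgeR adjusted p = 1.08e-08). ABCA2, which acts in lysosomal lipid handling, was at 60.9 ± 0.343 CPM in UHRF1 KO and 63.8 ± 4.31 CPM in control and did not pass (log2 fold change -0.066, SE 0.058; edgeR adjusted p = 0.327). Its value was 0.043 with total counts only, and it was called lower with trends on GC content and length taken out (-0.16), with recentring added (-0.46) and without control replicate 2 (-0.16). The pseudogene ABCA11P had 7 and 8 counts in UHRF1 KO and 10 and 11 in control and did not pass (edgeR adjusted p = 0.202), and ABCA17P was below the filter.

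ABCA1 acts with the LXR receptors and other sterol efflux genes, of which 20 were tested of 21 listed. Of these, 11 rose (55%) and 4 fell (20%), beside 32.0% called higher and 30.1% lower over all genes. The median log2 fold change was 0.31, beside 0.02 over all genes tested. The calls of the receptor transcripts depended on the scaling. NR1H3, which encodes LXR alpha, was at 26.9 ± 0.1498 CPM in UHRF1 KO and 26.5 ± 1.09 CPM in control (log2 fold change 0.020, SE 0.079; edgeR adjusted p = 0.846). NR1H2, which encodes LXR beta, was at 121 ± 0.339 CPM in UHRF1 KO and 114 ± 3.28 CPM in control (log2 fold change 0.087, SE 0.045; edgeR adjusted p = 0.0939). Neither passed here, but both were called lower with libraries recentred, NR1H3 at -0.39 and NR1H2 at -0.42. NR1H2 was also called lower with the trends alone taken out (-0.12), and higher with upper-quartile scaling (0.11), total counts only (0.20) and a minimum of 1 CPM in 2 libraries (0.11). RXRA, their usual dimer partner, rose 1.699-fold to 140.0 ± 1.899 CPM in UHRF1 KO, against 82.4 ± 3.24 CPM in control (edgeR adjusted p = 1.26e-15).

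Among LXR target genes and other genes of this list the differences were unequal. ABCG1, which acts beside ABCA1 in efflux to high-density lipoprotein, was at 14.5 and 16.01 CPM in UHRF1 KO and 2.804 and 2.64 CPM in control and rose 5.61-fold (log2 fold change 2.49, SE 0.15; edgeR adjusted p = 9.49e-16). APOE, an apolipoprotein that accepts exported lipid, was at 58.4 and 59.4 CPM in UHRF1 KO and 16.4 and 17.2 CPM in control and rose 3.503-fold (edgeR adjusted p = 1.71e-20). MYLIP, the LXR-induced ligase that degrades the LDL receptor, was at 7.90 ± 0.4203 CPM in UHRF1 KO and 7.07 ± 0.159 CPM in control and did not pass (log2 fold change 0.16, SE 0.14; edgeR adjusted p = 0.345), and its value was -0.11 with libraries recentred. SCD, a fatty acid desaturase gene, fell by 0.47 on the log2 scale (edgeR adjusted p = 2.42e-15). The nuclear corepressor gene NCOR1 fell by 0.45 (edgeR adjusted p = 5.26e-11) and SREBF2, a regulator of sterol synthesis, by 0.13 on the log2 scale (edgeR adjusted p = 0.00418). The SREBF2 call was lost with total counts only and without UHRF1 KO replicate 1. With libraries recentred the list split into 6 higher and 9 lower, while RXRA, ABCG1 and APOE stayed higher.

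Of 20 genes tested that bring cholesterol in or move it through lysosomes, 13 were called higher and 4 fell, beside 32.0% higher and 30.1% lower over all genes, with a median of 0.27. Of the 13, 1 passed the filter on its UHRF1 KO counts and had to come out higher. With libraries recentred 9 were higher and 7 lower. GRAMD1A, a carrier of cholesterol from the plasma membrane to the endoplasmic reticulum, rose 3.64-fold to 492 ± 5.97 CPM in UHRF1 KO, against 135 ± 8.52 CPM in control (edgeR adjusted p = 3.11e-28). LRP1, a large lipoprotein receptor, rose 2.69-fold (edgeR adjusted p = 2.56e-24), and GRAMD1B, a relative of GRAMD1A, rose 1.65-fold (edgeR adjusted p = 5.21e-17). CAV1, the coat protein of caveolae, fell by 0.85 on the log2 scale (edgeR adjusted p = 3.98e-19). The receptor gene VLDLR fell by 0.38 (edgeR adjusted p = 3.68e-04) and the lysosomal regulator TFEB by 0.56 on the log2 scale (edgeR adjusted p = 0.00663). The VLDLR call was lost with trends on GC content and length taken out, and that of TFEB with DESeq2 and without control replicate 2.

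ABCA3 acts with the surfactant genes of alveolar type II cells. Of 13 tested of 20 listed, 5 were called higher (38.5%), 2 of them on UHRF1 KO counts alone, 2 fell (15.4%) and 6 did not pass. Over all genes 32.0% were called higher and 30.1% lower. The higher share was near that over all genes, so nothing is read from it. The median was 0.32. With libraries recentred 4 were higher and 5 lower. Some type II markers, picked after their values were seen, were at or near 0. NKX2-1 and SFTPA1 had 0 counts in all 4 libraries, and SFTPC had 0 counts over both UHRF1 KO libraries and 1 over both controls. Others, picked in the same way, were detected in both groups and not called. NAPSA had 30 and 30 counts in UHRF1 KO and 18 and 28 in control, and LAMP3 had 10 and 13 against 3 and 10. CTSH was at 8.68 CPM in UHRF1 KO and 9.66 CPM in control, but was called lower with libraries recentred (-0.48). SFTPB, a surfactant protein gene, had 38 and 41 counts in UHRF1 KO and 0 and 2 in control, a ratio of 31.5 (95% counting interval 8.44 to 265). SLC34A2, the phosphate carrier of type II cells, had 33 and 46 counts in UHRF1 KO and 0 and 0 in control and was at least 20.9-fold higher. These 2 genes passed the filter on their UHRF1 KO counts and had to come out higher, so no test is given for them. LPCAT1, which remodels surfactant phosphatidylcholine, rose 1.51-fold to 256 ± 3.22 CPM in UHRF1 KO, against 169 ± 7.39 CPM in control (edgeR adjusted p = 1.81e-14). FOXA2, a lung epithelial transcription factor, fell to 10.1 ± 0.953 CPM in UHRF1 KO, against 23.2 ± 2.01 CPM in control (edgeR adjusted p = 9.22e-12), and its relative FOXA1 fell by 0.37 on the log2 scale (edgeR adjusted p = 0.0299). The FOXA1 call was lost in 6 of 15 alternatives, among them DESeq2 and leaving out control replicate 2, UHRF1 KO replicate 1 or UHRF1 KO replicate 2.

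ABCA12 belongs to the skin lipid barrier, and 13 such genes were tested of 18 listed. Of these, 6 were called higher (46.2%), 1 of them on UHRF1 KO counts alone, 1 fell (7.7%) and 6 did not pass. Over all genes 62.0% were called, 32.0% higher and 30.1% lower, so nothing is read from the number called. The median was 0.24. With libraries recentred the list split into 3 higher and 4 lower. SMPD1, an acid sphingomyelinase, rose 1.33-fold (edgeR adjusted p = 3.67e-04). Its call was lost with trends on GC content and length taken out and with libraries recentred, where its value was -0.15. PNPLA1, an acylceramide synthesis gene, had 25 and 19 counts in UHRF1 KO and 0 and 0 in control and was at least 11.9-fold higher. It passed the filter on its UHRF1 KO counts and had to come out higher, so no test is given for it. ABHD5, its lipase co-factor, fell by 0.40 on the log2 scale (edgeR adjusted p = 6.85e-04), a call lost with trends on GC content and length taken out.

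ABCA4 takes part in the retinoid cycle, and 11 retinoid genes were tested of 16 listed. Of these, 9 were called higher (81.8%) and 1 fell (9.1%), beside 32.0% higher and 30.1% lower over all genes. The median was 1.40, beside 0.02 over all genes tested. Of the 9, 3 passed the filter on UHRF1 KO counts and had to come out higher. CRABP2, a retinoic acid carrier, was at 23.1 and 23.2 CPM in UHRF1 KO and 1.74 and 2.16 CPM in control and rose 11.8-fold (edgeR adjusted p = 2.10e-20). RBP4, the plasma retinol carrier, rose 7.31-fold to 24.7 ± 0.281 CPM in UHRF1 KO, against 3.38 ± 0.333 CPM in control (edgeR adjusted p = 1.82e-19). RDH10, which oxidises retinol, rose 2.39-fold (edgeR adjusted p = 4.52e-19), and RDH11 fell by 0.23 on the log2 scale (edgeR adjusted p = 1.44e-05), a call lost with trends on GC content and length taken out. With libraries recentred 7 were higher and 1 lower.

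**Figure D5:**
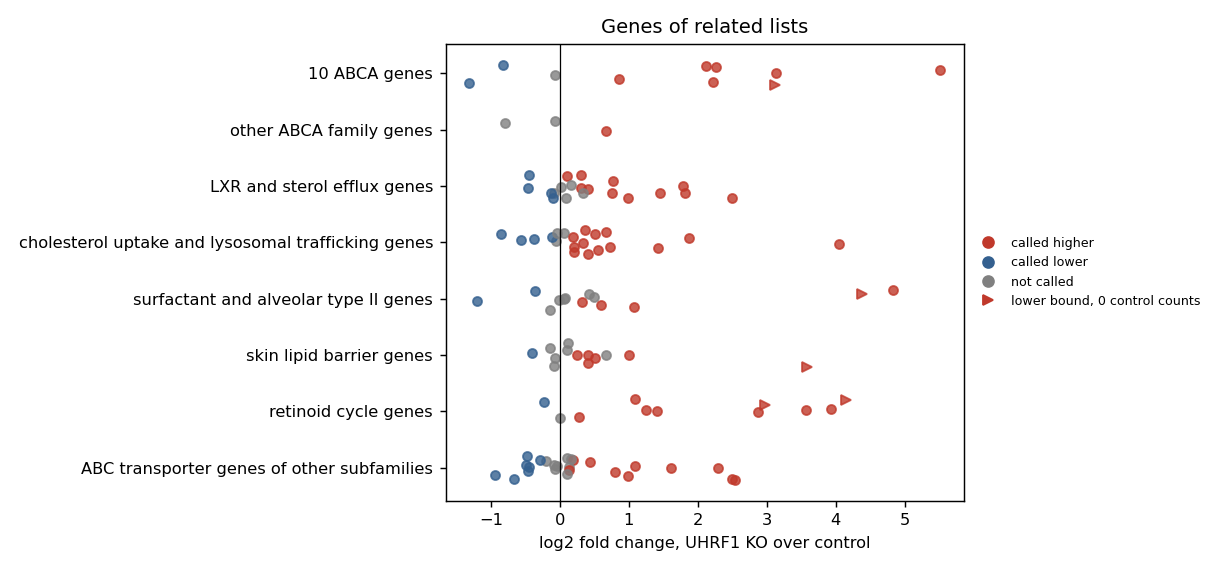
Log2 fold change, UHRF1 KO over control, of each tested gene in the ABCA set and in 7 related lists; red is called higher, blue called lower, grey not called, and triangles are lower bounds for genes with 0 control counts. The ABCA points run from -1.31 (ABCA12) to the fitted 5.51 of ABCA9, which rests on 1 control count.

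Of the other ABC subfamilies, listed by symbol from ABCB to ABCG and not all transporters, 25 genes were tested of 33 listed. Of the 25, 10 were called higher (40%), 7 fell (28%) and 8 did not pass, with a median of 0.10. These shares were near those over all genes, 32.0% higher and 30.1% lower, so nothing is read from them. Of the 10, 2 passed the filter on their UHRF1 KO counts and had to come out higher. With libraries recentred 6 were higher and 15 lower. ABCD4, needed for lysosomal cobalamin export, was at 28.6 and 29.04 CPM in UHRF1 KO and 17.1 and 16.1 CPM in control and rose 1.74-fold (edgeR adjusted p = 1.21e-09), and ABCG1 is given above. ABCC4, an exporter of cyclic nucleotides, fell by 0.66 on the log2 scale (edgeR adjusted p = 3.25e-13). ABCE1, a ribosome recycling factor, fell by 0.44 (edgeR adjusted p = 3.65e-10) and the peroxisomal ABCD3 by 0.46 on the log2 scale (edgeR adjusted p = 4.70e-09). No test set the ABCA genes against these, since the ABCA genes were chosen for their differences.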

How the data were processed

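Whole-number read counts per gene were deposited by the authors for 4 A549 libraries, raw and 1 column per library. FastQC 0.10.1 and the build GRCh38 are named per the submitters' processing notes; for the aligner, counter, annotation, use of strand and multiply mapped reads, the settings were not given in the sources used here. All 58735 identifiers were found in GENCODE 29. Columns were matched to samples by name. Both controls carry the short name with number 1, so their numbers follow the titles. This bears only on the block, on left-out controls and on the correlation of same-numbered libraries.

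Counts were fitted in R 4.3.3 with edgeR 4.0.16 (filterByExpr, TMM, quasi-likelihood test, two-sided, Benjamini-Hochberg over 17030 genes, threshold 0.05) on all 4 libraries. Each SE was approximated from the fit as the size of the log2 fold change divided by the root of its F statistic. Replicates differed by more than counting noise (chi-square per degree of freedom 1.85 in UHRF1 KO and 2.65 in control). Intervals and floors cover counting error only. The steps were tested on simulated counts with a shared dispersion and few changed genes, none with a low mean count. That does not cover a difference in most genes or members near 0 in control. Members and lists were chosen with earlier results of these data known. The genes named were the members, UHRF1, the other ABCA genes, 4 LXR genes, the flanking genes and the nearest patterns. Up to 3 called genes per list and direction, by adjusted p, were named too. SFTPC, SFTPA1, NKX2-1, NAPSA, LAMP3, CTSH and the markers were added after their values were seen. Alternatives were DESeq2 1.42.0, limma-voom (limma 3.58.1), other scalings, filters, a stricter threshold, a replicate block and leaving out each library. Some genes that this choice takes in are not reported here. Sequences are from RefSeq.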

Additional observations from a re-analysis of the deposited data

How the results depend on the processing

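Of the ABCA genes 7 were called higher and 2 lower in 13 of 15 alternatives. The exceptions were a minimum of 1 CPM in 2 libraries, which tested 6 members and called 4 higher, and leaving out UHRF1 KO replicate 2, which tested 9. Leaving out 1 library gave 6 to 7 members higher and 2 lower. ABCA8, not called in any, was 0.043 (total counts only), 0.19 (trends on GC content and length removed) and, with 1 library left out, -0.52 to 0.32. With libraries recentred, 3542 of all genes were called higher and 8221 lower (this split over all genes was added after seeing the data). The lists then had 6 higher and 9 lower (LXR), 7 lower (cholesterol uptake), 5 lower (surfactant) and 3 higher and 4 lower (skin). The other ABC subfamilies then had 6 higher and 15 lower, and the other ABCA genes 1 lower (also 1 with trends removed alone). Retinoid genes had 0 lower with trends removed alone. With total counts only 2 LXR genes and 1 surfactant gene were lower. DESeq2 called 2 cholesterol uptake genes and 1 surfactant gene lower, and a threshold of 0.01 left 1 surfactant gene lower. Leaving out 1 library gave 0 to 1 other ABCA genes, 1 to 2 surfactant genes and 1 to 2 skin genes lower. Of genes not called in the report's fit, NR1H2 was called lower at -0.12 with trends removed and at -0.42 recentred. NR1H3 was -0.093 with trends removed, -0.39 recentred (called lower), -0.013 with no filter and -0.044 to 0.043 with 1 library left out. MYLIP was -0.11 recentred, and ABCA2 was 0.043 with total counts only. The cause was not tested.

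The labels give both groups the numbers 1 and 2, and same-numbered libraries showed no shared deviation (correlation across genes -0.014). With 2 libraries per group, this cannot exclude that same-numbered libraries were handled together. With the replicate number as a block 7 ABCA genes were higher and 2 lower, and 5280 genes in all were higher and 4986 lower. Depth limits ABCA4, ABCA6, ABCA9 and ABCA13, with under 10 counts in each control library. The ABCA9 log2 fold change was 8.03 without control replicate 1 and 4.61 without control replicate 2.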

Other observations

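Of the 12 protein-coding genes that flank the members, 11 were tested, of which 3 rose, 6 fell and 2 did not pass, beside 62.0% called over all genes, 32.0% higher and 30.1% lower. The flanking genes lay 3.54 to 316 kb from their member or cluster. SLC44A1, a choline transporter gene 316 kb from ABCA1, rose (log2 fold change 0.47, SE 0.042, edgeR adjusted p = 9.27e-12). NIPSNAP3B, 3.54 kb from ABCA1 on the other side, did not pass (log2 fold change 0.27, SE 0.30, edgeR adjusted p = 0.457). Beside ABCA3, the cyclin gene CCNF fell (log2 fold change -0.35, SE 0.074; edgeR adjusted p = 1.16e-04) and the splicing gene RNPS1 did not pass (log2 fold change -0.090, SE 0.041; edgeR adjusted p = 0.059), but it was called lower with libraries recentred (-0.30), with no filter and without control replicate 2, and its value was 0.019 with total counts only. Both neighbours of ABCA4 fell, while ABCA4 itself was higher: GCLM, a subunit gene of glutathione synthesis, by 0.55 (edgeR adjusted p = 3.42e-14) and ARHGAP29 by 0.86 on the log2 scale (edgeR adjusted p = 7.10e-14). Both neighbours of ABCA12 also fell, BARD1, the partner of BRCA1, by 0.64 (edgeR adjusted p = 1.87e-07) and the purine synthesis gene ATIC by 0.43 on the log2 scale (edgeR adjusted p = 8.05e-11). Beside ABCA13, the uridine phosphorylase gene UPP1 rose (log2 fold change 0.62, SE 0.051; edgeR adjusted p = 1.70e-12) and CDC14C was below the filter.

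By Euclidean distance in log2(CPM + 0.1) over the 4 libraries, the tested protein-coding genes nearest to ABCA13 were SVOPL and MFAP5 at 0.12 and S100A8 at 0.16, each with 0 counts in both controls. Those nearest to ABCA12 were TIMD4 at 0.21, ATRNL1 at 0.30 and ZNF555 at 0.36. With 4 libraries in 2 groups such likeness describes level and difference only.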
